A study of Mus musculus with 31 samples.

Results

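Peroxisomal fatty acid oxidation was followed in mouse liver through 9 genes, Ehhadh, Hsd17b4, Acaa1a, Acaa1b, Pex11a, Nudt7, Ech1, Decr2 and Abcd2, chosen by symbol from the 22180 genes measured. The choice was made with earlier results of these data known. Each gene was read from the probe set that the platform's annotation names with that symbol alone. Each of the 9 had 1 such probe set. Livers came from 31 male mice of the C57BL/6 strain aged 3 to 4 months and were taken in the morning, and each column of values was read as 1 animal. The 4 groups crossed the feeding history with the final state. Fed-Fed-Fed mice (n = 8) had 0 earlier fasts and were sampled fed. Fed-Fed-Fast mice (n = 8) had 0 earlier fasts and were sampled after a 16 h fast. Fast-Fast-Fed mice (n = 8) had gone through 2 fasts of 16 h within 8 weeks and were sampled fed. Fast-Fast-Fast mice (n = 7) had the same 2 earlier fasts and were sampled after a final 16 h fast. No group carried an introduced allele or a drug, per the labels. The mice with 0 earlier fasts came from a cohort of 24 with free access to food. The Fed-Fed-Fast mice lost that access only for their final fast.

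Peroxisomes shorten fatty acids that mitochondria handle poorly, such as very-long-chain, branched and dicarboxylic ones, and pass the shortened products on for further oxidation. An ABC transporter brings the acyl-CoA in, an oxidation step opens the cycle and gives off hydrogen peroxide, a bifunctional enzyme hydrates and dehydrogenates the product, and a thiolase cleaves it. During a fast, fatty acids released from adipose tissue reach the liver, where the nuclear receptor PPAR-alpha, paired with RXR, drives many genes of peroxisomal and mitochondrial fatty acid oxidation.

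The promoters of 4 of the genes are shown because these genes cover the widest range of responses: Ehhadh rose most, Nudt7 fell, and Acaa1a and Acaa1b are near-identical copies that both rose. Each stretch holds the 250 bases before the gene's start, 5′ to 3′ on the gene's own strand, from RefSeq on GRCm38.p6. Capitals mark CCAAT boxes (CCAAT, or ATTGG on the other strand) and GC boxes (GGGCGG, or CCGCCC on the other strand).
Ehhadh, chr16:21787835-21788084, minus strand: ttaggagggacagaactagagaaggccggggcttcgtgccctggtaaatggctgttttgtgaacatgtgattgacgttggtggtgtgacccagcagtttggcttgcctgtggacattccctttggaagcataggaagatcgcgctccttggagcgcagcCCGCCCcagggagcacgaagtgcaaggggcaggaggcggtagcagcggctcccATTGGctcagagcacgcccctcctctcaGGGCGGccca
Acaa1a, chr9:119341044-119341293, plus strand: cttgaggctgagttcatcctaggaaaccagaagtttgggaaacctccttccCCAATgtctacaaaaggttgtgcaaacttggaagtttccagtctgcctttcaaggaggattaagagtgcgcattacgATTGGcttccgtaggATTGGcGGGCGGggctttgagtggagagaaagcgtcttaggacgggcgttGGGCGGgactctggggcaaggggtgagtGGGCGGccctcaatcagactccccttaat
Acaa1b, chr9:119157094-119157343, minus strand: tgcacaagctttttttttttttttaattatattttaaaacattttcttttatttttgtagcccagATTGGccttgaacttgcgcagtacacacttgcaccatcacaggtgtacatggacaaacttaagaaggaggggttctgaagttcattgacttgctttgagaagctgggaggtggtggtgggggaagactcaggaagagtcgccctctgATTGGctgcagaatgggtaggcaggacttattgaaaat
Nudt7, chr8:114133368-114133617, plus strand: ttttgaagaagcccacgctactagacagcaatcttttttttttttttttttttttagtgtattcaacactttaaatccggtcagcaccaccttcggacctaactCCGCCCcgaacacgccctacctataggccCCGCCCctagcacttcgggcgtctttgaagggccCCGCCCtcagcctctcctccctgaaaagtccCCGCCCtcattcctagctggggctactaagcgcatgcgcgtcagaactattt

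RefSeq promoter entries were matched by symbol for 7 of the 9 genes, and none was used for Hsd17b4 or Abcd2. A CCAAT box lay in 3 of the 7 promoters (Ehhadh, Acaa1a and Acaa1b), against 33.8% of all 32851 promoters of the same length. A GC box lay in 5 of the 7 (Ehhadh, Acaa1a, Nudt7, Ech1 and Decr2), against 32.7% of all promoters. The Nudt7 promoter held 4 GC boxes in the window shown and no CCAAT box, and RefSeq listed a second start for this gene. The element that PPAR-alpha and RXR bind, a direct repeat of AGGTCA with 1 base between the copies, searched on either strand with up to 2 mismatches, lay in 3.24% of all promoters and in 0 of the 7, and its half-site AGGTCA, which overlaps it, lay in 14% of all promoters and in 0 of the 7. That says only that these letters are not within 250 bases before these starts. Acaa1a and Acaa1b lie on chromosome 9 on opposite strands with 6 annotated genes between them, of which 4 are protein-coding.

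Values are RMA signals on a log2 scale, so a difference of 1 is a 2-fold change, and signals of different probe sets are not set against each other. Signals over all probe sets ran from -0.0139 to 13.1 with array medians of 2.01 to 2.07, and Pearson's r between arrays was 0.976 to 0.993. The summed signal of 11 hepatocyte markers, on the log2 scale, was 15.13 to 15.28 on every array, and 9 skeletal muscle markers summed to 4.73 to 5.26. Of 12 Kupffer cell markers, 7 fell with the final fast after 0 earlier fasts and 3 after 2, and their summed signal was 8.995 to 10.47 in fed and 8.77 to 9.83 in fasted mice. Of 10 stellate cell markers, 3 fell and 1 rose with 0 earlier fasts and 3 fell and 0 rose with 2, and of the 11 hepatocyte markers 5 rose and 2 fell with 0 and 3 rose and 1 fell with 2. Among 10 sinusoidal endothelial markers 1 rose with 0, and 1 rose and 1 fell with 2. Of the muscle markers 1 fell with 2 earlier fasts, and 0 of 5 cholangiocyte markers were called in either response. Rises and falls here are limma calls, as defined below. Over all genes these calls were 6.25% higher and 6.23% lower with 0 earlier fasts, and 6.06% and 5.52% with 2. Counts of 1 among these markers are near those shares. The part of these markers in the results below was not tested. In liver tissue, fewer cells of a type and less RNA per cell cannot be told apart. The labels name no batch, and precision is limited by how many arrays each group has.

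The first comparison asks what the final 16 h fast changed in mice that had not fasted before. All 9 genes changed: 8 rose and 1, Nudt7, fell. Ehhadh rose 6.96-fold and Pex11a 3.51-fold, the other risers between 1.61-fold and 2.04-fold, and Nudt7 dropped 4.51-fold. A gene counts as called where its limma p, 2-sided and adjusted by Benjamini and Hochberg's method for the 22180 genes tested, was under 0.05. Over all genes, 12.5% were called in this comparison, 6.25% higher and 6.23% lower. The median log2 difference of the 9 genes was 0.95, against -0.0036 over all genes. In 8 of the 9 genes the fasted and fed ranges did not overlap, 7 with the fasted mice higher and 1 with them lower. Over all genes, ranges lay apart in 2.18% with the fasted mice higher and in 2.10% with them lower.

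**Figure D1:**
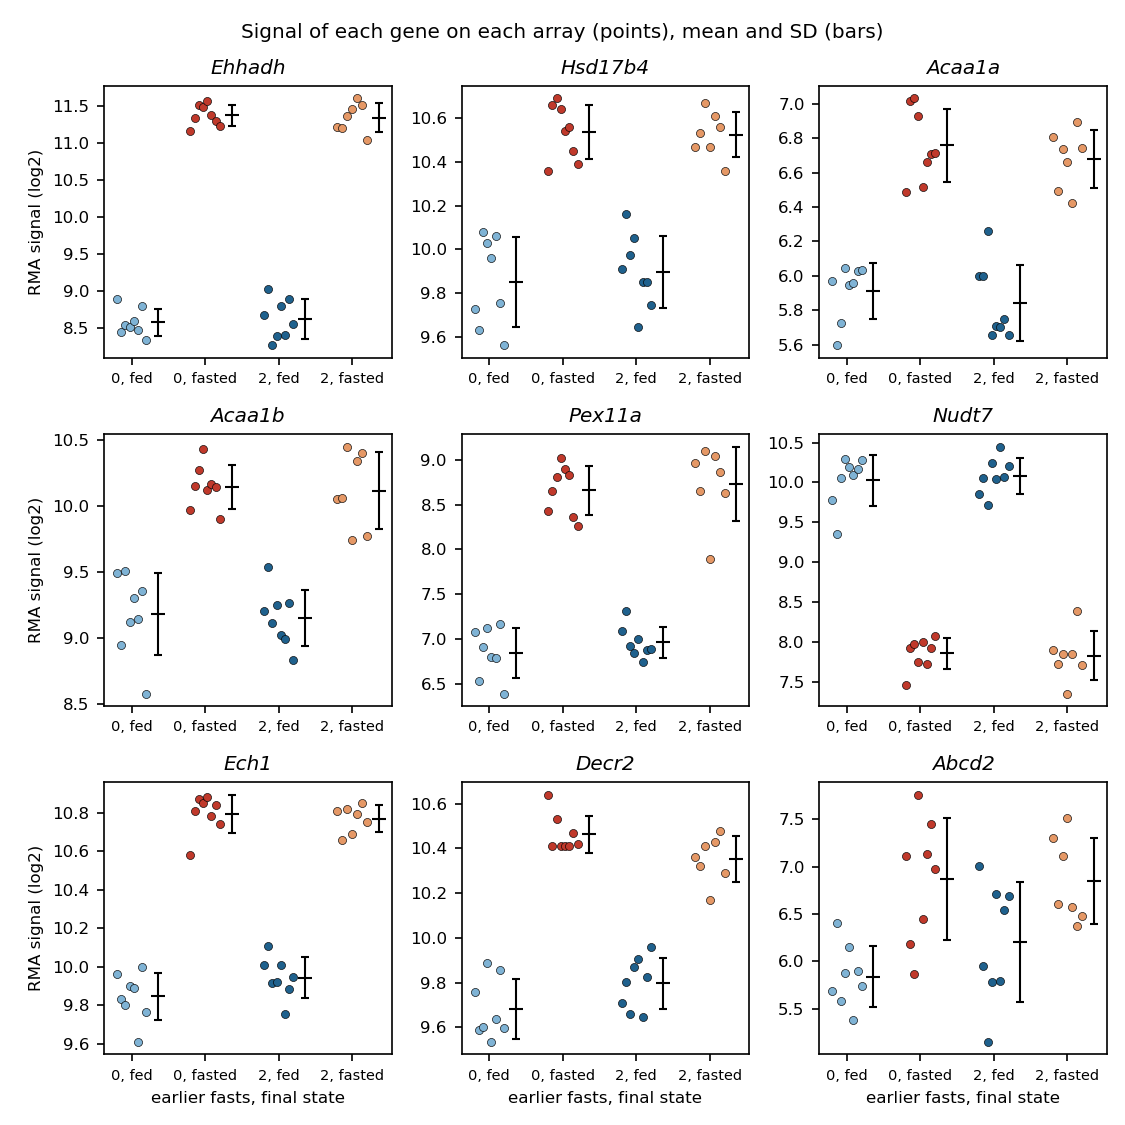
RMA signal (log2, vertical axes, each panel with its own scale) of the 9 genes on every array, by number of earlier fasts and final state, with 1 point per mouse and the mean and SD of each group beside the points. Fasted mice lie apart from fed mice of the same history in every panel but that of Abcd2, and Nudt7 alone is lower in the fasted mice.

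The bifunctional enzymes carry out the middle steps of the cycle. Ehhadh, the L-bifunctional enzyme of straight-chain and dicarboxylic acid oxidation, had log2 signals of 8.34 at the lowest, 8.52 at the median and 8.89 at the highest in Fed-Fed-Fed mice, and of 11.16, 11.36 and 11.56 in Fed-Fed-Fast mice. The lowest fasted mouse thus lay more than 2 log2 units above the highest fed mouse. The mean went from 8.57 ± 0.18 to 11.37 ± 0.14 (SD, n = 8 and 8), a log2 difference of 2.80 (SE 0.10, limma adjusted p = 6.166e-20), which held rank 18 among the rises of all 22180 genes. Hsd17b4, the D-bifunctional enzyme, which also serves branched-chain and bile acid intermediates, ran from 9.56 to 10.08 in the fed and from 10.36 to 10.69 in the fasted mice. Its log2 difference was 0.68 (SE 0.08, limma adjusted p = 7.414e-08), 1.61-fold.

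The difference between these 2 enzymes was tested on the log2 ratio of their signals within each array, which serves only to compare the size of the 2 responses. The response of Ehhadh exceeded that of Hsd17b4 by 2.11 on the log2 scale (adjusted p = 0.0003108, exact permutation test, 2-sided). In this family, 7 pairs of related genes were listed, 6 were measured, and p-values were adjusted over 12 tests, 6 in each feeding history. The smallest p that these permutations can give is 0.0001554 before adjustment.

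Thiolases end each round of the cycle. Acaa1b, a thiolase of straight-chain acids, had log2 signals of 8.58, 9.22 and 9.50 (lowest, median, highest) in Fed-Fed-Fed and of 9.90, 10.15 and 10.43 in Fed-Fed-Fast mice. Acaa1a, its near-identical copy, had 5.60, 5.97 and 6.05 in the fed and 6.49, 6.71 and 7.03 in the fasted mice. Both shifted as whole groups with no overlap. Acaa1b rose by 0.96 (SE 0.12, limma adjusted p = 2.025e-07) and Acaa1a by 0.84 (SE 0.10, limma adjusted p = 3.531e-08). The responses of the copies differed by 0.12, which did not pass the test (adjusted p = 0.4485, exact permutation test), and transcripts of such similar genes may hybridize to each other's probes. Acaa2, the thiolase of the mitochondrial cycle, had a log2 difference of 0.05 (limma adjusted p = 0.6707). The response of Acaa1a exceeded that of Acaa2 by 0.79 (adjusted p = 0.0003108, exact permutation test).

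Unsaturated fatty acids need auxiliary enzymes, of which the 9 genes hold Ech1, a dienoyl-CoA isomerase, and Decr2, a peroxisomal dienoyl-CoA reductase. Ech1 had log2 signals of 9.61, 9.86 and 10.00 in Fed-Fed-Fed and of 10.58, 10.82 and 10.88 in Fed-Fed-Fast mice, and rose by 0.95 (SE 0.06, limma adjusted p = 6.004e-14). Decr2 had 9.54, 9.62 and 9.89 in the fed and 10.41, 10.42 and 10.64 in the fasted mice, and rose by 0.78 (SE 0.06, limma adjusted p = 2.245e-11). These changes were 1.93-fold and 1.72-fold, with fed and fasted mice apart for both genes. Decr1, the mitochondrial reductase of the same kind, rose by 0.82 (SE 0.07, limma adjusted p = 2.649e-11). The responses of Decr2 and Decr1 differed by -0.04, which did not pass the test (adjusted p = 0.4485, exact permutation test).

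Pex11a codes for a membrane protein that shapes and divides peroxisomes. It had log2 signals of 6.39, 6.85 and 7.17 in Fed-Fed-Fed and of 8.26, 8.73 and 9.02 in Fed-Fed-Fast mice. It rose by 1.81 (SE 0.14, limma adjusted p = 5.541e-12), at rank 50 among the rises.

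Nudt7 codes for a peroxisomal hydrolase that breaks down coenzyme A and its esters. It moved against the other 8 genes. Its log2 signals were 9.35, 10.13 and 10.30 (lowest, median, highest) in Fed-Fed-Fed mice and 7.46, 7.92 and 8.08 in Fed-Fed-Fast mice, so that every fasted mouse lay below every fed mouse. The log2 difference was -2.17 (SE 0.13, limma adjusted p = 1.041e-14), rank 31 among the falls of all genes. Nudt19, another peroxisomal coenzyme A hydrolase, had a log2 difference of 0.06 (limma adjusted p = 0.7134). The responses of Nudt7 and Nudt19 differed by -2.23 (adjusted p = 0.0003108, exact permutation test).

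Abcd2, a transporter of very-long-chain acyl-CoA into peroxisomes, had the largest SD of the 9 genes in each of the 4 groups. Its log2 signals were 5.39, 5.81 and 6.41 in Fed-Fed-Fed mice and 5.87, 7.05 and 7.76 in Fed-Fed-Fast mice, so the groups overlapped. It rose by 1.03 (SE 0.25, limma adjusted p = 0.003109). The mouse with the highest Abcd2 signal, Fed-Fed-Fast replicate 4 at 7.76, also had the highest summed signal of 5 adipocyte markers, 5.25, against 4.19 for the next mouse of its group and 3.84 to 4.26 in the other 3 groups. Without that mouse Abcd2 rose by 0.90 (limma adjusted p = 0.009765). With all mice kept, 0 of the 5 markers were called in either response. Over all arrays the highest signals of the 5 markers were 1.63 for Lep, 2.08 for Adig, 2.70 for Adipoq, 3.22 for Plin1 and 4.05 for Retn, and their part in the Abcd2 result was not tested. Abcd3, the more widely used transporter of the same family in liver, rose by 0.34 (SE 0.07, limma adjusted p = 0.0006011). The response of Abcd2 exceeded that of Abcd3 by 0.69 (adjusted p = 0.04685, exact permutation test), a call that was lost in 11 of the 16 fits that left out 1 mouse, where the value ran from 0.57 to 0.83.

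The same fast was then compared in mice with 2 earlier fasts. Of the 9 genes, 7 rose, Nudt7 fell and Abcd2 did not pass the test, against 11.6% of all genes called, 6.06% higher and 5.52% lower. Ehhadh rose 6.60-fold, Pex11a 3.42-fold, and Nudt7 fell 4.77-fold. The median log2 difference of the 9 genes was 0.83, against -0.0004 over all genes. Fed and fasted ranges lay apart for the 8 called genes, 7 higher and 1 lower, against 2.29% and 2.08% of all genes.

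Ehhadh had log2 signals of 8.26, 8.61 and 9.02 (lowest, median, highest) in Fast-Fast-Fed and of 11.04, 11.36 and 11.60 in Fast-Fast-Fast mice, with means of 8.62 ± 0.27 and 11.34 ± 0.20 (SD, n = 8 and 7). Its log2 difference was 2.72 (SE 0.10, limma adjusted p = 4.291e-19). Hsd17b4 rose by 0.63 (SE 0.08, limma adjusted p = 9.175e-07), and the response of Ehhadh again exceeded it, by 2.10 (adjusted p = 0.0003108, exact permutation test). Both bifunctional enzymes lay apart between fed and fasted mice.

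Acaa1a rose by 0.84 and Acaa1b by 0.96 in this history, with a difference of 0.13 between the copies that did not pass the test (adjusted p = 0.4485, exact permutation test). Ech1 rose by 0.83 (SE 0.06, limma adjusted p = 4.209e-12) and Decr2 by 0.55 (SE 0.07, limma adjusted p = 9.935e-08). Acaa2 again had a small difference, 0.09 (limma adjusted p = 0.3922), and the response of Acaa1a exceeded it by 0.75 (adjusted p = 0.0005328, exact permutation test).

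Pex11a had log2 signals of 6.74, 6.91 and 7.32 in Fast-Fast-Fed and of 7.89, 8.87 and 9.10 in Fast-Fast-Fast mice, a rise of 1.77 (SE 0.14, limma adjusted p = 2.5e-11). Replicate 4 of the fasted group was the low one. Nudt7 had 9.72, 10.06 and 10.45 in the fed and 7.35, 7.85 and 8.39 in the fasted mice. Its log2 difference was -2.25 (SE 0.13, limma adjusted p = 1.268e-14), rank 28 among the falls, and it differed from the response of Nudt19 by -2.29 (adjusted p = 0.0003108, exact permutation test).

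Abcd2 had log2 signals of 5.15, 6.24 and 7.01 in Fast-Fast-Fed and of 6.37, 6.60 and 7.51 in Fast-Fast-Fast mice. The ranges overlapped, and the log2 difference of 0.65 (95% interval 0.13 to 1.17) had a limma adjusted p of 0.103. Without Fast-Fast-Fed replicate 1, the mouse with the highest fed signal, the difference was 0.76 and passed (limma adjusted p = 0.04708), as it did at 0.65 when dim genes were left out (limma adjusted p = 0.04977). The response of Abcd2 exceeded that of Abcd3 by 0.45, which did not pass (adjusted p = 0.184, exact permutation test).

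**Figure D2:**
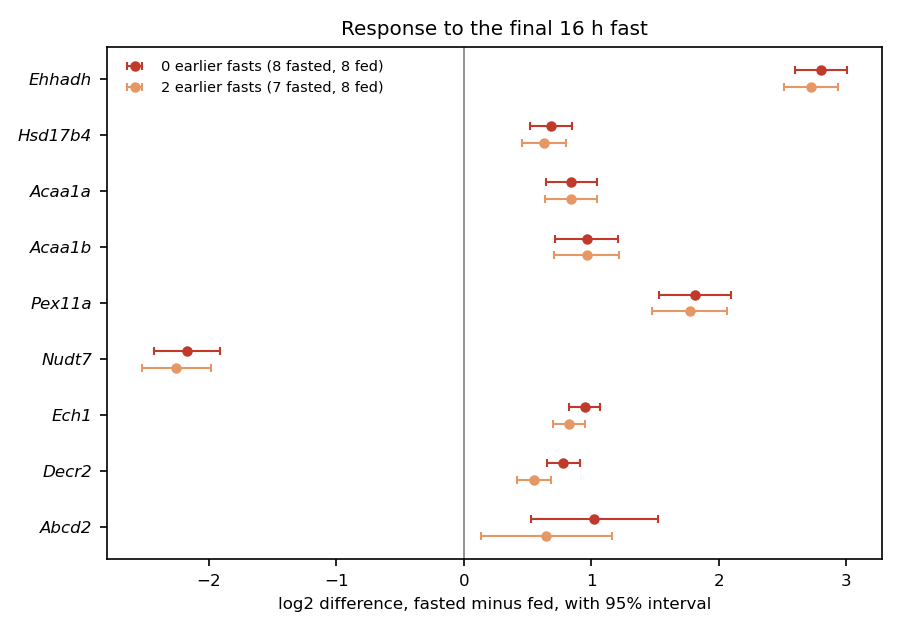
Log2 difference between fasted and fed mice (horizontal axis) with its 95% interval, for the 9 genes in mice with 0 earlier fasts (8 fasted, 8 fed) and with 2 (7 fasted, 8 fed). Ehhadh lies at 2.80 and 2.72, Nudt7 at -2.17 and -2.25, and the intervals of the 2 histories overlap for all 9 genes.

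Whether earlier fasts left a mark on these genes was asked in fed mice, in fasted mice and as the interaction of history with the final fast. Limma called 0 of the 9 genes in each, as it did over all genes, where 0% were called. At an unadjusted p under 0.05 there were 1245 genes in fed mice, 996 in fasted mice and 1023 in the interaction, and of the 9 genes 0, 0 and 1. In fed mice the differences of the 9 genes between 2 and 0 earlier fasts ran from -0.07 (Acaa1a) to 0.36 (Abcd2), with a median of 0.05. In fasted mice they ran from -0.11 (Decr2) to 0.08 (Pex11a), with a median of -0.03. For every one of the 9 genes, the ranges of the 2 histories overlapped in fed and in fasted mice, while in 8 of the 9, all but Abcd2, both fasted groups lay on one side of both fed groups. Ranges of the histories lay apart in 0.00902% of all genes with higher and 0% with lower signals in fed mice, and in 0.0135% and 0.0225% in fasted mice.

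The intervals say how large a difference these arrays leave possible. For Ehhadh the 95% interval of the history difference was -0.16 to 0.25 in fed and -0.24 to 0.18 in fasted mice. For Nudt7 it was -0.21 to 0.31 and -0.30 to 0.24. Ech1 had the narrowest intervals, -0.03 to 0.22 and -0.15 to 0.10, and Abcd2 the widest, -0.14 to 0.86 and -0.53 to 0.50.

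**Figure D3:**
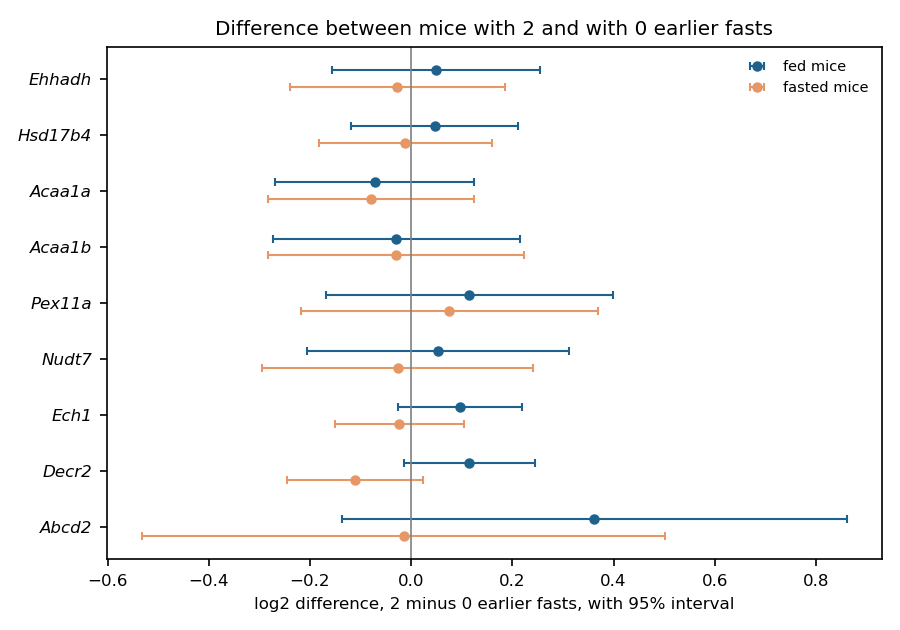
Log2 difference between mice with 2 and with 0 earlier fasts (horizontal axis) with its 95% interval, for the 9 genes in fed mice (8 and 8) and in fasted mice (7 and 8). All intervals include 0, and the widest are those of Abcd2.

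Decr2 was the gene with an unadjusted p under 0.05 in the interaction. Its response was 0.78 with 0 and 0.55 with 2 earlier fasts, an interaction of -0.23 (SE 0.09) that did not pass over all genes (limma adjusted p = 0.9994). In Fast-Fast-Fed mice its log2 signals were 9.65, 9.81 and 9.96 and in Fast-Fast-Fast mice 10.17, 10.36 and 10.48. Decr1 rose by 0.91 (SE 0.07, limma adjusted p = 6.586e-12) with 2 earlier fasts, and there the response of Decr2 fell short of that of Decr1 by a difference of -0.35 (adjusted p = 0.0003108, exact permutation test).

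The log2 ratio of Decr2 to Decr1 ran from 3.09 to 3.35 in Fed-Fed-Fed, from 3.34 to 3.68 in Fast-Fast-Fed, from 3.03 to 3.33 in Fed-Fed-Fast and from 3.06 to 3.25 in Fast-Fast-Fast mice. Fast-Fast-Fed mice were the high group, with a mean of 3.49 ± 0.13 (SD, n = 8) against means of 3.13 to 3.20 in the others. The difference between the 2 histories in the response of the ratio was -0.31 (adjusted p = 0.006179 over 6 pairs, exact permutation of the history labels within each final state, 2-sided), a test added after the values were seen. In the other 5 pairs this test gave an adjusted p of 0.9703. Its permutations take the ratio to be free of history in both final states, so its null is narrower than equal responses. In fed mice, Decr2 was 0.11 higher and Decr1 differed by -0.17 with 2 earlier fasts (limma adjusted p = 0.8998 and 0.8563), and neither passed alone.

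Other gene lists were counted against the shares of all genes, which were 6.25% higher and 6.23% lower with 0 earlier fasts and 6.06% higher and 5.52% lower with 2. Of 26 other genes of peroxisomal oxidation measured, 12 rose and 2 fell with 0 earlier fasts and 13 rose and 2 fell with 2, with median log2 differences of 0.18 and 0.26. The 2 falls are near the share of all genes that fell. The thioesterases Acot3 and Acot4, which split coenzyme A from acyl-CoA, rose by 2.93 and 1.73 with 0 and by 3.14 and 1.76 with 2 earlier fasts. Crat, a carnitine acetyltransferase that exports short acyl groups, rose by 2.31 and 2.15. Acnat2, an acyl transferase that conjugates fatty acids with amino acids, rose by 2.00 and 2.05. The genes that fell were Slc25a17, a peroxisomal membrane carrier of cofactors (-0.68 and -0.73), and Pecr, a trans-enoyl-CoA reductase (-0.48 and -0.51).

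Peroxins build the organelle. Of 12 measured, 5 rose and 0 fell with 0 earlier fasts, and 4 rose and 1 fell with 2, with medians of 0.18 and 0.16. The 1 fall is near the 5.52% of all genes lower in that comparison. Pex19 and Pex3, which insert membrane proteins, rose by 0.67 and 0.32 with 0 and by 0.70 and 0.37 with 2 earlier fasts. Pex16, of the same pathway, rose by 0.64 and 0.65, and Pex14, a docking protein for imported enzymes, by 0.54 and 0.53. Pex11g, a relative of Pex11a, fell by 0.34 with 2 earlier fasts (limma adjusted p = 0.03442) and had a difference of -0.10 with 0 (limma adjusted p = 0.658).

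Of 19 peroxisomal proteins outside fatty acid oxidation, 2 rose and 5 fell with 0 earlier fasts, and 3 rose and 5 fell with 2, with medians of -0.04 and -0.10. The 2 rises with 0 earlier fasts are near the 6.25% of all genes higher. Hao1, a glycolate oxidase, fell by 0.92 and 0.75, Idh1, an isocitrate dehydrogenase, by 0.59 and 0.51, and Mpv17l, a peroxisomal membrane protein, by 0.32 and 0.56. Pxmp4, another membrane protein, rose by 0.63 in both histories, and Dhrs4, a carbonyl reductase, by 0.59 and 0.57. Cat, the catalase that removes hydrogen peroxide, had differences of -0.05 and -0.10 (limma adjusted p = 0.6583 and 0.2502).

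Mitochondrial beta-oxidation takes over the products of the peroxisomal cycle. Of 16 genes measured, 14 rose and 0 fell with 0 earlier fasts and 13 rose and 0 fell with 2. Their median log2 differences were 0.75 and 0.79. Hadhb, counted as a riser in both, was dim. Its fed and fasted means were 1.91 and 2.64 with 0 earlier fasts, and 1.84 and 2.75 with 2. Cpt1a, the gatekeeper of fatty acid entry into mitochondria, rose by 1.36 and 1.31, Slc25a20, the carnitine carrier, by 1.25 and 1.20, Acadm, the medium-chain dehydrogenase, by 1.01 and 0.90, and Eci1, an enoyl-CoA isomerase, by 1.00 and 0.82. Of 10 genes for PPAR-alpha and its partners, 4 rose and 0 fell with 0 earlier fasts and 2 rose and 0 fell with 2. The 2 rises with 2 earlier fasts were 1 under several alternatives, against 6.06% of all genes higher. They are too few to read as a trait of this list. Ppara itself rose by 0.47 (SE 0.11, limma adjusted p = 0.002545) and 0.52 (SE 0.11, limma adjusted p = 0.001249). Ppargc1a, a coactivator, rose by 0.89 and Rxra, the partner receptor, by 0.29 with 0 earlier fasts, and their differences of 0.41 and 0.13 with 2 did not pass. The other calls were Lpin1, a coactivator of PPAR-alpha, at 0.93 with 0 earlier fasts, and Rxrg at 0.40 with 2. The classical PPAR-alpha target Cyp4a14, a fatty acid hydroxylase, rose by 6.50 (SE 0.52) and 5.50 (SE 0.53). Its fed means were 5.64 ± 1.84 and 6.65 ± 1.25 (SD), and its interaction was not called. In the history comparisons and the interaction, 0 genes of these 5 lists were called.

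**Figure D4:**
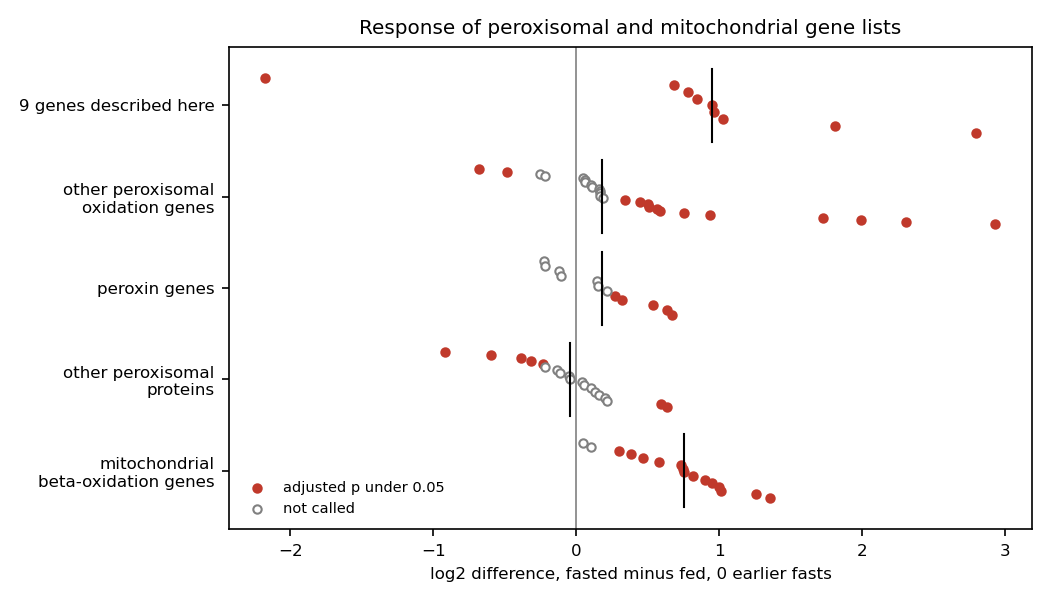
Log2 difference between fasted and fed mice with 0 earlier fasts (horizontal axis) for each gene of 5 lists, with filled points for genes called at an adjusted p under 0.05, open points for genes not called and a vertical line at each list's median. The medians are 0.95 for the 9 genes, 0.18 for the 26 other peroxisomal oxidation genes and 0.18 for the 12 peroxins. They are -0.04 for the 19 other peroxisomal proteins and 0.75 for the 16 mitochondrial genes. The 9 genes and the lists were chosen with earlier results of these data known, so gaps between medians are no test.

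Within groups, some of the 9 genes varied together from mouse to mouse and others did not. Over 31 arrays, Pearson's r of deviations from the group means ran from -0.38 (Hsd17b4 and Abcd2) to 0.75 (Acaa1b and Pex11a) over 36 gene pairs, with a median of 0.21, 6 pairs over 0.5 and 7 below 0. These correlations are a description, since all genes of an array share its RNA and its normalization. Acaa1b and Pex11a kept an r of 0.70 without the 2 arrays farthest from the median. Hsd17b4 and Acaa1b had an r of 0.67, Ehhadh and Ech1 of 0.61, and Ehhadh and Acaa1b of 0.60. Nudt7 had an r of at most 0.27 with any of the other 8 genes.

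**Figure D5:**
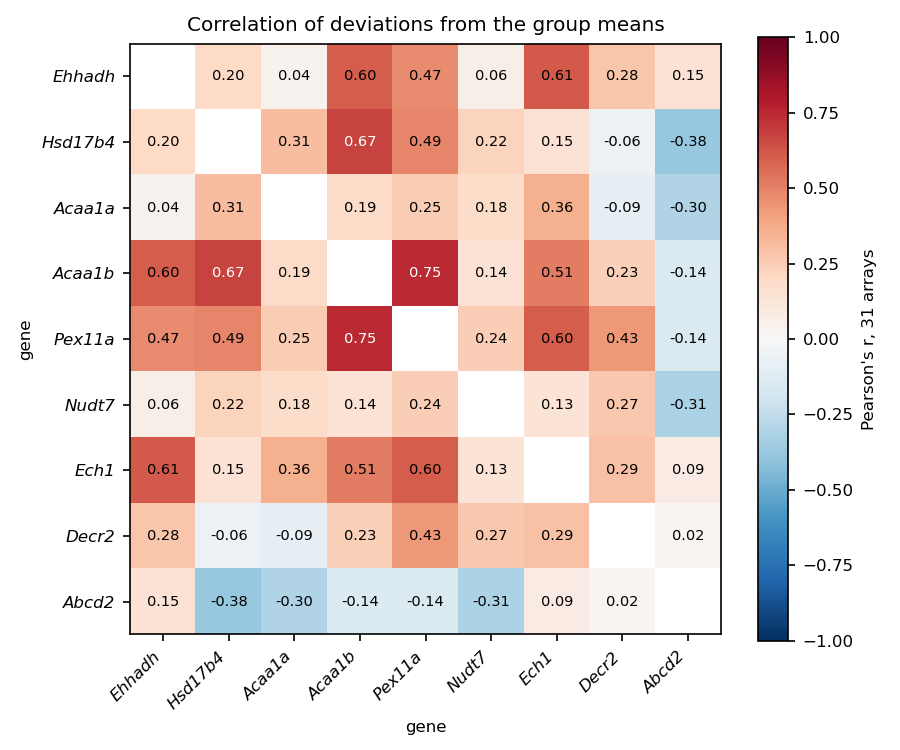
Pearson's r (colour and number) between deviations from the group means for each pair of the 9 genes over 31 arrays. The highest value is 0.75 for Acaa1b and Pex11a, and Abcd2 has r below 0 with 5 of the other 8 genes.

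Some mice had the lowest or highest signal of their group in several of the 9 genes. The counts given are the largest over all mice and both ends. No share over all genes was computed beside them, and some of the 9 genes varied together. Fast-Fast-Fed replicate 2 had the highest signal of its group in 5 of the 9 genes, and Fed-Fed-Fast replicate 1 the lowest in 5. Fast-Fast-Fast replicate 4 and Fed-Fed-Fed replicate 8 were each the lowest of their group in 4 genes, and Fast-Fast-Fast replicate 6 was the highest of its group in 4.

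Over all 22180 genes, those most like Ehhadh in these deviations were Acot2, a mitochondrial thioesterase (r = 0.79, Spearman's rho = 0.79), Tmem135 (r = 0.78, rho = 0.79) and Vnn1, a pantetheinase (r = 0.76, rho = 0.81), over 31 arrays. For Acaa1b they were Pex11a (r = 0.75, rho = 0.73), Lipa, the lysosomal acid lipase (r = 0.73, rho = 0.73), and Sfxn5, a mitochondrial carrier (r = 0.72, rho = 0.72). For Nudt7 they were Tcf25 (r = 0.66, rho = 0.62), Nrp1, a co-receptor on endothelial cells (r = 0.66, rho = 0.66), and Nek6, a kinase (r = 0.66, rho = 0.62). These are the 3 highest of 22180 correlations for each gene, without predicted and numbered gene models.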

How the data were processed

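Liver RNA of 31 mice, 100 ng each, was labelled with biotin and hybridized to Affymetrix whole-transcript arrays, per the labels' protocols. The deposited values are log2 signals that the authors made with RMA (background correction, quantile normalization and probe set summary), per the submitters' processing notes, in a version not given in the sources used here. Of 41345 probe sets, 23521 carried 1 gene symbol in the platform's annotation, and for each of 22180 genes the probe set with the highest mean was used. RefSeq (GRCm38.p6) gave the same symbols for the Entrez identifiers of the 9 genes and the promoters.

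Groups came from the titles and were fitted together as group means with limma 3.58.1 in R 4.3.3 (version 1.17.8 of the data.table package), 2-sided, with Benjamini-Hochberg adjustment. Pairs of genes were compared by exact permutation. No label ties a mouse to another, so p-values measure the spread between these mice. The 9 genes, all lists, pairs and tests were chosen with earlier results of these data known. Named genes are the 9 and up to 4 called genes of each other list with the largest changes with 0 earlier fasts. Mpv17l and Rxrg were added for their changes with 2 earlier fasts. Also named are both genes of each pair, the 3 genes most like Ehhadh, Acaa1b and Nudt7, and Ppara, Cat and Cyp4a14. Slc25a17, Pecr, Pex11g, Hadhb and the adipocyte genes were named after their values were seen.

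On simulated data with 200 changed genes in each of 5 draws, limma recovered 98.4, 99.0, 98.4, 97.4 and 90.0% of 2-fold changes in the responses with 0 and 2 earlier fasts, the history in fed and in fasted mice and the interaction, and 83.2, 84.4, 85.2, 82.8 and 53.6% of 1.5-fold changes. The simulated noise was normal and independent between genes. With fewer than 200 changed genes the adjusted cutoff is stricter, so these rates may be too high for the history comparisons and the interaction. Alternatives were 2 further normalizations, no dim genes (a group mean over 4 required), the mean of all probe sets, other variance models, array weights, only the groups compared, a replicate block and leaving out each mouse. Plots were made in Python 3.11.15 (matplotlib 3.10.9).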

Additional observations from a re-analysis of the deposited data

Results flagged for a closer look

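Pex11a in Fast-Fast-Fast mice had 1 mouse far from the others: replicate 4 lay at 7.89 on the log2 scale, and the next lowest mouse at 8.63. Without it the response of Pex11a with 2 earlier fasts was 1.91 (limma adjusted p = 4.191e-13), against 1.77 with it. Ech1 in Fed-Fed-Fast mice also had 1 mouse below the others, replicate 1 at 10.58 against 10.74 for the next. With 36 groups examined, 9 genes in 4 groups, chance gives such a mouse in about 1 of 20 groups.

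The response of the Decr2 to Decr1 ratio differed between histories by -0.31 on the log2 scale (adjusted p = 0.006179 over 6 pairs, exact permutation test). The value ran from -0.33 to -0.29 when each mouse was left out in turn and stayed past the threshold each time. The test was added after the values were seen, and limma over all genes called neither gene's interaction. The null of the permutations was no history difference of the ratio in either final state.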

How the results depend on the processing

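Signals are tissue averages, dim probe sets have no detection call here, and 7 or 8 mice a group leave small history differences undetected. The count of called genes among the 9 was 9 in the response with 0 earlier fasts under every alternative run, with 2 earlier fasts 8, or 9 without dim genes and without Fast-Fast-Fed replicate 1 (through Abcd2), and 0 in both history comparisons and the interaction. For the 9 genes, 2 alternatives could not change the log2 differences: the mean of all probe sets, since each had 1, and leaving out dim genes. The call of Abcd2 against Abcd3 with 0 earlier fasts was lost under cyclic loess (0.67, adjusted p = 0.05897, exact permutation test). The 2 called genes of PPAR-alpha and its partners with 2 earlier fasts became 1 when only the groups compared were fitted. Without dim genes 1 was called, and there only 8 of the 10 genes were tested, so a called gene may have been removed. Called genes of this list were 1 to 2 when each mouse was left out. They were 1 without Fast-Fast-Fast replicate 3, 5 or 7 and without Fast-Fast-Fed replicate 6 or 7. The cause was not tested.

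Signs turned only in history differences and interactions near 0 that no setting called. For the history in fasted mice, Abcd2 was 0.0067 with array weights. For the interaction, Acaa1b was -0.0202 under cyclic loess and -0.0036 with array medians subtracted, and Pex11a was 1e-04 with array weights. Over the fits that left out each mouse, the history in fed mice ran from -0.0078 to 0.1004 for Ehhadh, from -0.1155 to 0.0166 for Acaa1b and from -0.0429 to 0.1044 for Nudt7. In fasted mice it ran from -0.0696 to 0.0231 for Ehhadh, from -0.0365 to 0.0156 for Hsd17b4, from -0.0846 to 0.0323 for Acaa1b, from -0.1214 to 0.0521 for Nudt7 and from -0.1576 to 0.112 for Abcd2. The interaction ran from -0.0458 to 0.0528 for Acaa1a, from -0.0551 to 0.0863 for Acaa1b, from -0.0991 to 0.1016 for Pex11a and from -0.1748 to 0.0159 for Nudt7.

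Same-numbered mice did not deviate together (r from -0.06 to 0.12 over 45 pairs of samples, 3 of them over 0.1), so the numbers were not taken as pairing. With the replicate number as a block, 2812 and 2584 genes were called in the responses with 0 and 2 earlier fasts, against 2768 and 2569 without it. The block turned the sign of the history difference in fasted mice for Abcd2 (0.0087) and Nudt7 (0.0016) and of the interaction for Acaa1b (-0.0552), none of them called, and changed no call among the 9 genes.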
